A study of Mus musculus with 16 samples.

Results

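Dual specificity MAP kinase phosphatases were described in livers of mice on a high-fat diet, through the transcripts of Dusp1, Dusp3, Dusp4, Dusp5, Dusp6, Dusp7, Dusp8, Dusp10, Dusp16 and Dusp22. These 10 genes were listed by symbol, with earlier results of these data known. Each was found on 1 of the 55487 rows of the deposited tables. The 16 polyA-enriched liver libraries form 3 groups: 6 named Flpo, whose hepatocytes the series text assigns to the 7b splice forms of JNK1 and JNK2, 5 named Cre, assigned to the 7a splice forms, and 5 named GFP, the controls. Every library, controls included, comes from a mouse of strain C57/Bl6J with the genotype label J1 J2 lf/lf, kept on the high-fat diet. Cre and Flpo are recombinases that act on conditional alleles. The labels used here give neither the promoter nor the delivery of the recombinases, and they give no age. Recombination was assigned to hepatocytes, whereas whole liver was sequenced, so the other liver cells contribute to every value. The labels number the libraries singly but do not say whether each is a separate animal. The p-values therefore speak of the spread among libraries, which may be technical. The library numbers run in blocks by group, and a batch of animals or harvest cannot be told apart from the group.

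MAP kinases (ERK, p38 and JNK) are switched on by phosphorylation of a threonine and a tyrosine in their activation loop, and dual specificity phosphatases remove both. The classical members carry a domain that docks on MAP kinases, and they differ in location and in preferred kinase. Dusp1, Dusp4 and Dusp5 encode inducible nuclear enzymes, Dusp6 and Dusp7 encode cytoplasmic enzymes that prefer ERK, and Dusp8, Dusp10 and Dusp16 encode enzymes that prefer JNK and p38. Dusp3 and Dusp22 encode small atypical members without the docking domain. Several of these genes are themselves transcribed in response to MAP kinase activity, and Dusp1 is also known as a target of glucocorticoids and of cyclic AMP. The sequencing measured transcripts, not phosphatase protein or activity.

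Total estimated counts per library ranged from 27929393 to 36043322, and 13905 genes passed the filter on low counts, all 10 phosphatase genes among them. Defining hepatocyte markers were abundant in every library, with Alb at 32370 to 54714 TPM. Of the muscle and pancreas markers, Ckm and Prss2 were at 0 in every library and Acta1 reached at most 0.122 TPM, whereas Cela1 stood at 34.9 to 53.7 TPM. The targeted genes Mapk8 and Mapk9 were not called in any comparison, and counts summed over a gene do not show which splice form was made. Mapk8 averaged 13.5 ± 0.824 CPM in Flpo (SD, n = 6), 11.4 ± 2.44 in Cre and 11.7 ± 3.04 in GFP (SD, n = 5 each), and Mapk9 averaged 46.3 ± 4.21, 33.1 ± 5.49 and 42.7 ± 14.1 CPM in the same order. Calls below rest on edgeR's quasi-likelihood test, with the p-value adjusted over all genes by Benjamini-Hochberg and a threshold of 0.05. CPM are counts scaled to library size with TMM factors, and a level in CPM is compared only within a gene. The balance of calls depended on scaling: Flpo against Cre had 1036 genes higher and 870 lower, against 1810 and 454 with library totals alone and 2417 and 326 on log2(TPM + 1). Cre against GFP had 552 higher and 776 lower, against 300 and 1656 with library totals alone and 216 and 1888 on log2(TPM + 1).

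Among the called genes, Dusp1 lies on chromosome 17 from 26505590 to 26562128 on the minus strand of GRCm38, Dusp5 on the plus strand of chromosome 19 (53529109 to 53542431), and Dusp16 on chromosome 6 from 134715468 to 134792625 on the minus strand. Their promoters are shown because these 3 members were called in at least 1 comparison. The stretches run from 250 to 51 bases before the RefSeq start site (GRCm38.p6), 5′ to 3′ on the gene's strand, and hold no base of the gene's own GENCODE exons. They lie at chr17:26508523-26508722 for Dusp1, chr19:53528895-53529094 for Dusp5 and chr6:134792679-134792878 for Dusp16. Capitals mark matches on either strand to the cyclic AMP response element TGACGTCA, the AP-1 site TGANTCA, the E-box CACGTG, the STAT5 site TTCNNNGAA or the CArG box, which serum response factor binds. The CArG box was added to the search after the sequences were seen. No match overlaps another.
Dusp1: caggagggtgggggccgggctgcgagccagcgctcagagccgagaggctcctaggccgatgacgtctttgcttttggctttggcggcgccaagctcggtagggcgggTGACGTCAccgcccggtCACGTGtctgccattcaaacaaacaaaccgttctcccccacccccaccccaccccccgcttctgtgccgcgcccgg
Dusp5: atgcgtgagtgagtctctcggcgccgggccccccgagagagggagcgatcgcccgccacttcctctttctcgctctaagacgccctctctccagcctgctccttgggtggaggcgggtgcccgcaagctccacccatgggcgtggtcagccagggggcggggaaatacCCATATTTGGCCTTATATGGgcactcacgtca
Dusp16: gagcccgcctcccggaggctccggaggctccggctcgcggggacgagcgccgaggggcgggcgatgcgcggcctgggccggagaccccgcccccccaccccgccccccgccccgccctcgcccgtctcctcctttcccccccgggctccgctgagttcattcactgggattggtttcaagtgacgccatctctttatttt

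The Dusp1 stretch holds 1 cyclic AMP response element, whose first base lies 143 bases before the start, and 1 E-box at 126 bases. The Dusp5 stretch holds CArG boxes at 82 and 72 bases before the start, and the Dusp16 stretch holds none of the 5 motifs. Of the 9 members with a promoter in the table, Dusp1, Dusp5 and Dusp8 held a match. Dusp8 has cyclic AMP response elements at 107 and 63 bases. Dusp5 held a match only to the CArG box, the motif added after the sequences were seen. The share of all promoters with any of the 5 motifs was not computed. Over all 32851 promoter stretches of the same length, 0.828% held the cyclic AMP response element, 4.34% the E-box, 1.16% a CArG box, 5.57% the AP-1 site and 5.76% the STAT5 site. These are matches of letters, not measured binding.

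The family fell into an abundant and a scarce set. By TPM, which scales for gene length and so allows genes to be compared, Dusp6 averaged 16.1 ± 4.86 TPM over the 16 libraries (SD), Dusp3 14.7 ± 3.17, Dusp22 12.4 ± 1.71, Dusp1 11.1 ± 4.26 and Dusp16 7.08 ± 1.84. The next member, Dusp10, stood at 1.13 ± 0.299 TPM and was below Dusp16 in 16 of 16 libraries with no overlap of their ranges. Dusp7 followed at 1.07 ± 0.262 TPM, Dusp5 at 0.523 ± 0.218, Dusp4 at 0.388 ± 0.116 and Dusp8 at 0.274 ± 0.215. Elsewhere in this order the ranges of neighbours overlapped. Dusp6 exceeded Dusp3 in 11 of 16 libraries, Dusp3 exceeded Dusp22 in 12, Dusp22 exceeded Dusp1 in 10 and Dusp1 exceeded Dusp16 in 13. In the scarce set Dusp10 exceeded Dusp7 in 7 of 16 libraries, Dusp7 exceeded Dusp5 in 14, Dusp5 exceeded Dusp4 in 13 and Dusp4 exceeded Dusp8 in 12.

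**Figure D1:**
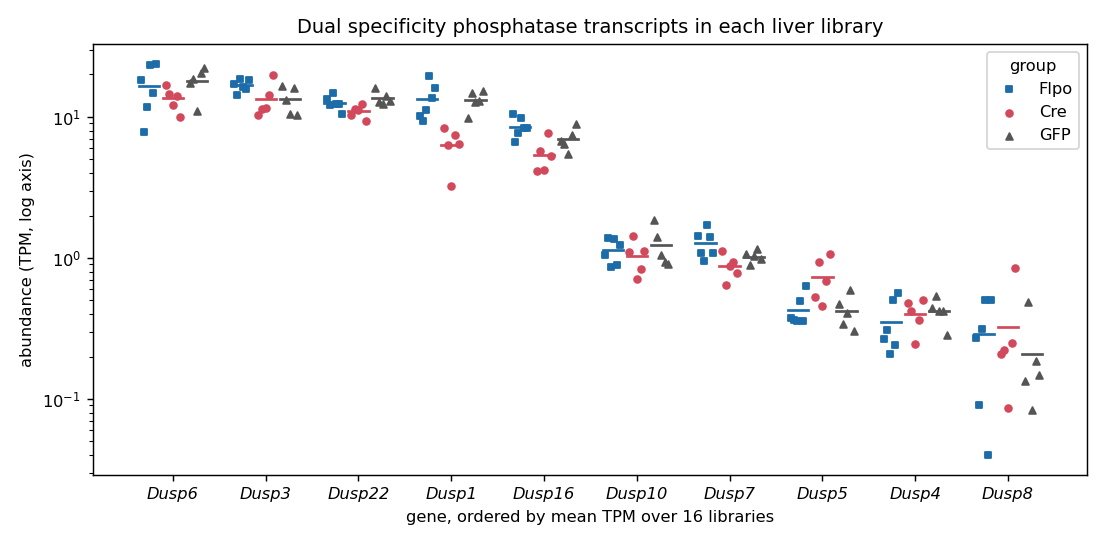
Abundance of each phosphatase transcript in TPM on a log axis, with 1 point per library and a short line at the group mean, for 6 Flpo, 5 Cre and 5 GFP libraries. Dusp6, Dusp3, Dusp22, Dusp1 and Dusp16 lie above the remaining 5 genes in each group, and the Cre points of Dusp1 lie low.

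The 5 abundant genes supplied 94.0% to 96.0% of the family's summed TPM in Flpo libraries, 92.2% to 94.8% in Cre and 94.4% to 96.4% in GFP. Dusp1 alone supplied 13.9% to 22.8% of the sum in Flpo, 7.26% to 15.7% in Cre and 13.8% to 23.1% in GFP. The summed level was 71.4 ± 11.4 TPM in Flpo, 53.1 ± 5.25 in Cre and 68.3 ± 7.62 in GFP, a description on the TPM scale, on which the median of all genes was also lower in Cre. Relative spread differed between members. Over all libraries the coefficient of variation of CPM was 10.7% for Dusp22 and 20.2% for Dusp3, against 34.4% for Dusp1, 47.7% for Dusp5 and 82.4% for Dusp8. Dusp8 rested on 4.30 to 87.4 estimated counts per library, Dusp4 on 14.8 to 34.95 and Dusp5 on 18.7 to 59.6, so counting error weighs most on these genes.

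Each comparison asks which phosphatase transcripts differ between livers assigned to 1 splice form and the other livers. In Cre against GFP, 1 of the 10 genes fell and 1 rose, beside 9.55% of all genes called in either direction, 3.97% higher and 5.58% lower. In Flpo against Cre, 1 fell and 2 rose, beside 13.7% called, 7.45% higher and 6.26% lower. In Flpo against GFP none was called by edgeR, beside 0.0288% of all genes. There 1 member had an unadjusted p under 0.05 in edgeR, beside 1353 of all 13905 genes tested. DESeq2 and limma-voom called 0 members. None of the 10 separated Flpo from GFP libraries without overlap, as 1.55% of all genes did. The median log2 fold change of the 10 genes was -0.05 in Cre against GFP, 0.04 in Flpo against Cre and 0.00 in Flpo against GFP, beside medians of all genes of 0.00140, -0.00499 and -0.00546. These comparisons share their libraries, so a Cre value enters both comparisons with Cre. In whole liver, fewer cells of a type and less RNA per cell cannot be told apart.

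**Figure D2:**
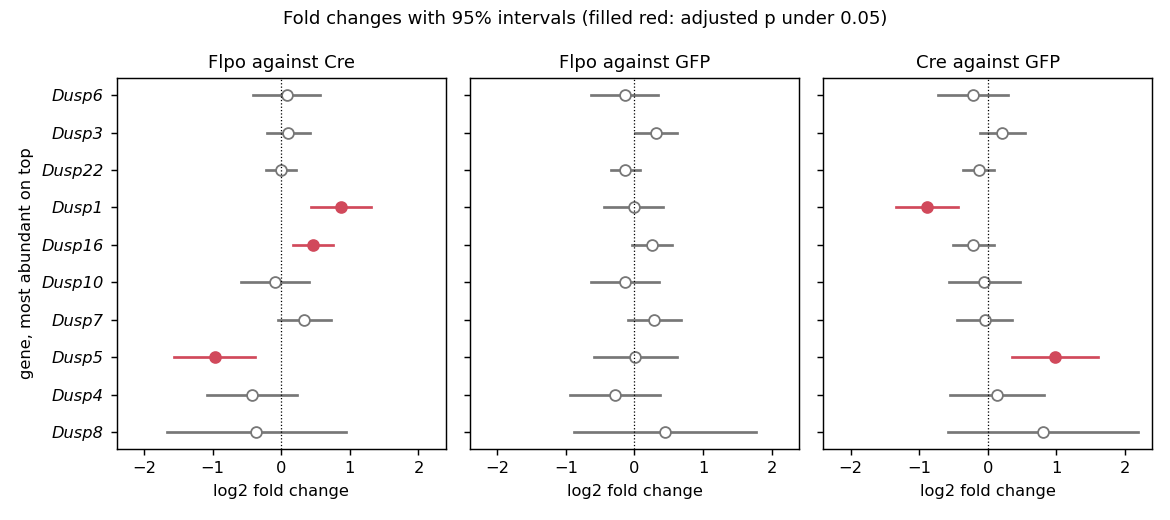
Log2 fold change of each member with its 95% interval in the 3 comparisons, positive where the first named group is higher. Filled red points passed an adjusted p under 0.05: Dusp1, Dusp16 and Dusp5 in Flpo against Cre, and Dusp1 and Dusp5 in Cre against GFP.

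Among the inducible nuclear phosphatases, Dusp1, which inactivates p38 and JNK as well as ERK, was lower in Cre livers than in both other groups. It stood at 14.4, 10.9, 6.15, 10.9 and 11.1 CPM in Cre, against 13.8, 22.0, 20.4, 18.2 and 23.99 CPM in GFP. All 5 Cre libraries were below the GFP median and 4 were below every GFP library, with Cre replicate 1 just above GFP replicate 1. The log2 fold change was -0.88 (SE 0.21, 95% interval -1.33 to -0.43), a fold of 0.544, with an adjusted p of 0.0156 in edgeR's quasi-likelihood test. In Flpo livers the lowest, median and highest values were 14.5, 18.5 and 27.3 CPM. Every Flpo library lay above every Cre library, and 7.84% of all genes separated these groups in either direction. The log2 fold change of Flpo against Cre was 0.87 (SE 0.21, interval 0.43 to 1.30, adjusted p = 0.00952 in edgeR). Flpo and GFP averaged 19.5 ± 5.16 and 19.7 ± 3.90 CPM (n = 6 and 5), and the interval of their log2 difference was -0.44 to 0.41. Both Dusp1 calls held in all 26 alternative settings, with adjusted p up to 0.0421 for Cre against GFP and up to 0.0450 for Flpo against Cre.

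Dusp5, a nuclear phosphatase selective for ERK, moved the other way. It stood at 1.14, 2.08, 1.12, 1.29 and 2.35 CPM in Cre, against 0.856, 0.648, 0.835, 1.08 and 0.616 CPM in GFP. All 5 Cre libraries lay above every GFP library, where 8.2% of all genes separated these groups in either direction, although the lowest Cre and the highest GFP value nearly met. The log2 fold change was 0.98 (SE 0.30, interval 0.36 to 1.61, adjusted p = 0.0441 in edgeR). In Flpo the lowest, median and highest values were 0.671, 0.714 and 1.19 CPM. In Flpo 5 of 6 libraries were below every Cre library and Flpo replicate 6 lay within their range. For Flpo against Cre the log2 fold change was -0.97 with an SE of 0.28 (interval -1.56 to -0.38), called at an adjusted p of 0.0286 in edgeR, and Flpo against GFP stood at 0.01 (interval -0.59 to 0.62).

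The Dusp5 calls depended on single libraries. In Cre against GFP, 11 of 26 alternatives called it. The call was lost without GFP replicates 1, 2, 3 or 5 (adjusted p = 0.0692, 0.0930, 0.0700 and 0.101), without Cre replicates 2 or 5 (0.105 and 0.120) and without Flpo replicates 2 or 3 (0.0502 each), all in edgeR. Other losses included limma-voom (0.0548), without a low-count filter (0.109) and on log2(TPM + 1) (0.0699). In Flpo against Cre, 18 of 26 alternatives called it, and the losses included the fits without Cre replicates 2 or 5 (adjusted p = 0.0823 and 0.0877) and without Flpo replicates 3 or 5 (0.0542 and 0.0568). The direction was the same in every alternative.

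Dusp4, the third nuclear member, which acts on ERK and JNK, was not called in any comparison. It averaged 0.735 ± 0.302 CPM in Flpo, 0.986 ± 0.252 in Cre and 0.896 ± 0.184 in GFP, and the 3 ranges overlapped. The intervals were wide, from -1.08 to 0.23 in Flpo against Cre and from -0.54 to 0.82 in Cre against GFP on the log2 scale.

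**Figure D3:**
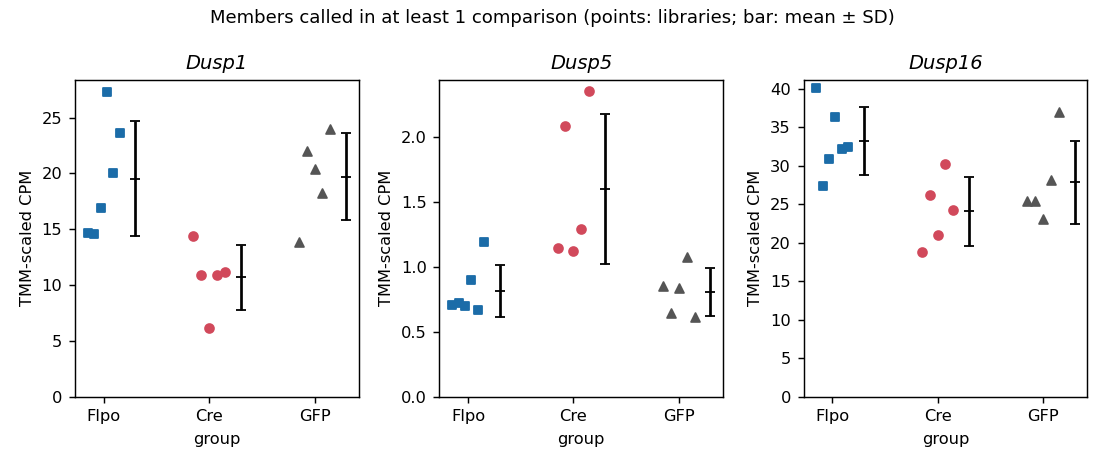
TMM-scaled CPM of Dusp1, Dusp5 and Dusp16 in each library, with the group mean ± SD beside the points (6 Flpo, 5 Cre and 5 GFP libraries). The 5 Cre points lie between 6.15 and 14.4 CPM for Dusp1, below all Flpo points, and between 1.12 and 2.35 CPM for Dusp5, above all GFP points.

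Of the phosphatases that prefer JNK and p38, Dusp16 differed between the recombinase groups. It stood at 27.4, 32.3 and 40.1 CPM as lowest, median and highest in Flpo, against 18.8, 26.3, 21.0, 30.3 and 24.2 CPM in Cre. In Flpo 5 of 6 libraries were above every Cre library, and Flpo replicate 2 was the exception. The log2 fold change was 0.46 (SE 0.14, interval 0.17 to 0.75), a fold of 1.38, with an adjusted p of 0.0337 in edgeR. GFP lay between at 27.9 ± 5.42 CPM, with values of 25.5, 25.5, 23.1, 28.2 and 37.0, and differed by less than the threshold from Flpo (log2 fold change 0.25, adjusted p = 0.572) and from Cre (-0.21, 0.408). The call was made in 18 of 26 alternatives. It was lost without Cre replicates 1, 3 or 5 (adjusted p = 0.0939, 0.0929 and 0.0564) and without Flpo replicates 1, 4, 5 or 6 (0.0733, 0.0733, 0.0570 and 0.0585).

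Dusp10 and Dusp8, the other JNK and p38 phosphatases, were not called. Dusp10 averaged 2.38 ± 0.495 CPM in Flpo, 2.53 ± 0.713 in Cre and 2.62 ± 0.772 in GFP, with log2 intervals of -0.58 to 0.41 in Flpo against Cre and -0.57 to 0.46 in Cre against GFP. Dusp8 ranged from 0.128 to 1.73 CPM in Flpo, from 0.373 to 3.41 in Cre and from 0.313 to 1.71 in GFP. Its log2 fold change in Cre against GFP was 0.80 with an interval of -0.58 to 2.19, and it ranged from 0.03 to 1.40 with each library left out, lowest without Cre replicate 5. In Flpo against Cre it stood at -0.36, and at 0.41 without Cre replicate 5. At 4.30 to 87.4 estimated counts per library, the interval of Dusp8 in each comparison covered both directions.

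The cytoplasmic ERK phosphatases were not called either. Dusp6, a feedback inhibitor of ERK signalling and the most abundant member, stood at 16.6, 33.1 and 47.9 CPM as lowest, median and highest in Flpo. In Cre it was 39.5, 34.4, 31.7, 28.3 and 23.7 CPM, and in GFP 33.6, 38.1, 24.2, 39.6 and 48.1 CPM. The Flpo libraries alone spanned nearly the range of all 16. The log2 fold change was 0.08 in Flpo against Cre (interval -0.41 to 0.57), -0.14 in Flpo against GFP (-0.63 to 0.35) and -0.22 in Cre against GFP (-0.73 to 0.29). Dusp7 averaged 3.09 ± 0.592 CPM in Flpo, 2.45 ± 0.509 in Cre and 2.53 ± 0.217 in GFP. All 6 Flpo libraries were above the Cre median, at a log2 fold change of 0.33 (SE 0.18, adjusted p = 0.258 in edgeR).

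The atypical phosphatases were not called in any comparison. Dusp3, which encodes VHR, an enzyme that acts on ERK and JNK, averaged 43.5 ± 4.32 CPM in Flpo, 40.5 ± 11.6 in Cre and 34.99 ± 5.85 in GFP. All 6 Flpo libraries lay above the GFP median and 3 above every GFP library. Its log2 fold change in Flpo against GFP was 0.31 (unadjusted p = 0.0495, adjusted p = 0.513 in edgeR), the only unadjusted p under 0.05 among the members there. In Cre, replicate 5 stood at 60.7 CPM and the others at 31.0 to 38.8, and the log2 fold change of 0.21 against GFP was 0.02 without that library. Dusp22, which encodes a phosphatase known to affect JNK signalling, averaged 15.3 ± 1.97 CPM in Flpo, 15.4 ± 1.56 in Cre and 16.8 ± 1.24 in GFP. Its log2 intervals were -0.22 to 0.21 in Flpo against Cre and -0.36 to 0.09 in Cre against GFP, the narrowest of the family.

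Pairs of members varied together to different degrees. On log2 CPM over the 16 libraries, Pearson's r between member pairs was highest for Dusp4 with Dusp10 (0.61), Dusp4 with Dusp5 (0.58) and Dusp4 with Dusp8 (0.56), all scarce genes. It was lowest for Dusp4 with Dusp22 (-0.55) and Dusp1 with Dusp5 (-0.52). With each group's mean taken out, Dusp1 with Dusp5 stood at 0.19. Dusp1 with Dusp16 stood at 0.20, against 0.52 over all libraries with group means left in, whereas Dusp4 with Dusp10 stood at 0.64. These values describe 16 libraries that share group and scaling.

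The transcripts whose pattern was most like that of a member were found over the other 13904 genes tested. For Dusp1 they were Nqo1, a quinone oxidoreductase (Pearson's r 0.91, Spearman's rho 0.87), Gm45609 (0.90 and 0.83) and Ppif, mitochondrial cyclophilin D (0.89 and 0.86), and the most opposite was Srd5a1, a steroid reductase (-0.88 and -0.86). For Dusp5 they were Ung, a uracil DNA glycosylase (0.90 and 0.84), Tubb2a, a tubulin (0.90 and 0.70), and Arl1, a GTPase of the Golgi (0.89 and 0.84), and the most opposite was Acss2, an acetyl-CoA synthetase (-0.89 and -0.82). For Dusp16 they were Impg2 (0.94 and 0.92), Ugt1a1, which conjugates bilirubin (0.91 and 0.89), and the prolactin receptor gene Prlr (0.90 and 0.86), and the most opposite was Gramd4 (-0.89 and -0.89). For Dusp6 they were Basp1 (0.82 and 0.72), Gm15952 (0.80 and 0.79) and Arhgap31 (0.79 and 0.68), and the most opposite was Nemp2 (-0.78 and -0.68). Nqo1 averaged 8.53 ± 1.996 CPM in Flpo and 4.16 ± 1.14 in Cre, and Prlr 125 ± 23.7 CPM in Flpo and 69.4 ± 24.2 in Cre. These means differ between groups, and with group means taken out r was 0.78 for Dusp1 with Nqo1 and 0.83 for Dusp16 with Prlr. It was 0.71 for Dusp1 with Ppif and 0.69 for Dusp5 with Arl1. All these genes were picked for the highest or lowest r among 13904 in the same libraries, so each r carries that selection. Gm45609, Gm15952 and Nemp2 were scarce, with a mean of at most 0.566 CPM in each group.

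Other dual specificity phosphatase genes were measured beside the family. Of 15 listed, 8 passed the filter, and 1 was called: Dusp14, which encodes a small phosphatase that acts on MAP kinases. It stood at 0.243 to 0.990 CPM in Flpo, 0 to 0.108 in Cre and 0.261 to 1.01 in GFP, so the Cre libraries lay below all others (adjusted p = 0.00312 in Flpo against Cre and 0.00621 in Cre against GFP, edgeR). That rests on 0 to 2.88 estimated counts per Cre library, against 7.68 to 31.7 in Flpo and 7.68 to 28.7 in GFP. Dusp14 passed the filter on low counts only through its Flpo and GFP libraries, so these calls and the separation carry that selection. Among the other MAP kinase phosphatases, of which 8 of 10 were tested, none was called by edgeR in any comparison. Their unadjusted p was under 0.05 for 1 in Flpo against Cre, 1 in Flpo against GFP and 2 in Cre against GFP. Of all 13905 genes, 3748, 1353 and 3373 had such a p, in the same order.

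Of 12 MAP kinase genes tested, 1 fell in Cre against GFP: Mapk3, which encodes ERK1, at 32.5 ± 2.99 CPM in Cre and 39.4 ± 1.99 in GFP (log2 fold change -0.28, SE 0.08, adjusted p = 0.0453 in edgeR). None was called by edgeR in Flpo against Cre or in Flpo against GFP, where 5 and 1 had an unadjusted p under 0.05. Of all 13905 genes, 3748 and 1353 had such a p in these comparisons. Of 24 upstream kinase genes, 1 rose and 2 fell in Cre against GFP, and 3 rose and 1 fell in Flpo against Cre. Over all genes 9.55% were called in Cre against GFP and 13.7% in Flpo against Cre, and the upstream kinase counts lay near these shares. Map3k6, a kinase of the ASK family, stood at 1.07, 2.77, 0.559, 1.29 and 5.49 CPM in Cre, against 0.421 to 0.974 CPM in GFP. It was called at a log2 fold change of 1.78 (adjusted p = 0.0420 in edgeR), and stood at 1.14 and was not called without Cre replicate 5 (0.158). In Flpo against GFP its log2 fold change was 1.08 (unadjusted p = 0.0494, adjusted p = 0.513). Map3k4, a kinase upstream of p38 and JNK, averaged 16.7 ± 3.05 CPM in Flpo, 12.3 ± 1.74 in Cre and 17.4 ± 3.05 in GFP, lower in Cre than in both others (adjusted p = 0.0445 and 0.0377). Both activators specific to p38 were higher in Flpo than in Cre: Map2k3 averaged 67.7 ± 10.4 CPM in Flpo and 45.2 ± 4.63 in Cre (adjusted p = 0.00216), and Map2k6 averaged 3.95 ± 1.61 and 1.15 ± 0.742 CPM (0.00735). Map2k6 also fell in Cre against GFP (3.02 ± 0.991 CPM in GFP, adjusted p = 0.0422). Map3k14, a kinase of the non-canonical NF-kappaB pathway, was lower at 3.32 ± 0.5005 CPM in Flpo and 5.17 ± 1.45 in Cre (0.0372). With each library left out in turn, chosen as a check after the values were seen, Map2k3 and Map2k6 were called in Flpo against Cre in all 16 fits. The other calls named here were not: Mapk3 kept its call in 2 of 16 fits, Map2k6 in Cre against GFP in 4, Map3k4 in 4 for Flpo against Cre and 6 for Cre against GFP, Map3k6 in 8 and Map3k14 in 8. Their highest adjusted p came without GFP replicate 1 for Mapk3 (0.129), GFP replicate 5 for Map2k6 (0.107), Flpo replicate 2 (0.114) and GFP replicate 4 (0.119) for Map3k4, and Cre replicate 2 for Map3k14 (0.0911).

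**Figure D4:**
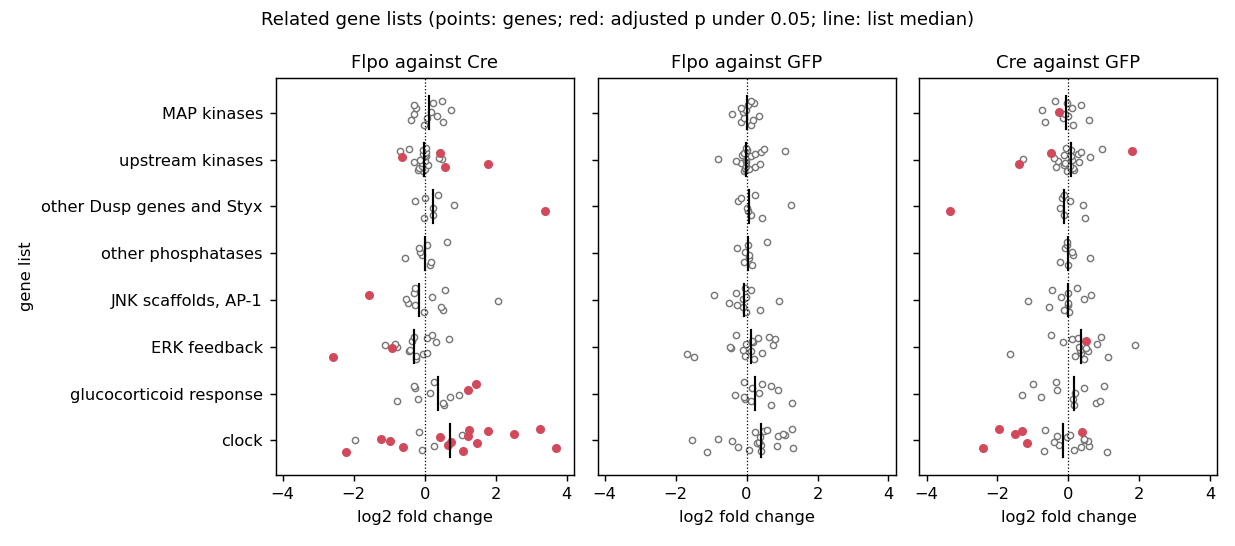
Log2 fold changes of the tested genes of 8 related lists in the 3 comparisons, with 1 point per gene, red where the adjusted p was under 0.05 and a line at the list median. In Flpo against Cre, 11 of 20 clock genes were called higher and 4 lower. In Flpo against GFP edgeR called 0 of them, with 13 at an unadjusted p under 0.05, beside 1353 of all 13905 genes.

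Feedback genes of ERK signalling, like Dusp5 and Dusp6, are transcribed in response to ERK. Of 17 tested, 1 was higher in Cre against GFP, beside 3.97% of all genes. In Flpo against Cre 2 were lower, beside 6.26% of all genes. The list medians were 0.36 and -0.29 on the log2 scale. The gene higher in Cre was Spred2, an inhibitor of the Ras to ERK pathway, at a log2 fold change of 0.51 (SE 0.15, adjusted p = 0.0411 in edgeR), called in 8 of 16 fits with a library left out (up to 0.0901, without GFP replicate 3). Egr1, an immediate early transcription factor, stood at 3.37 to 8.58 CPM in Flpo and 9.85 to 102 in Cre, with no overlap (log2 fold change -2.59, SE 0.49, adjusted p = 0.00254 in edgeR). Ier2, another immediate early gene, averaged 14.1 ± 1.82 CPM in Flpo and 26.9 ± 12.7 in Cre (adjusted p = 0.0245), and the AP-1 subunit gene Junb averaged 15.6 ± 2.06 and 46.2 ± 30.2 CPM (0.0101). Cre replicate 1 was the highest library for all 3 genes, at 102 CPM for Egr1, 97.9 for Junb and 48.0 for Ier2, with the other Cre libraries at most at 31.0, 42.9 and 27.5 CPM. Without it the log2 fold change was -1.79 for Egr1 (adjusted p = 0.00192) and -1.10 for Junb (0.0251), both called, and -0.62 for Ier2 (0.0749), not called. Ier2 was also not called without Flpo replicate 4 (0.0504). Junb was the 1 called gene among 12 tested scaffold and AP-1 genes, and Jun was not called. Dusp1 is known as an immediate early gene as well, and it was higher in Flpo than in Cre, where these 3 genes were lower. Whether an immediate early response bears on the Dusp1 difference was not tested.

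Of 12 genes that respond to glucocorticoids, 2 rose in Flpo against Cre, beside 7.45% of all genes called higher there. An unadjusted p under 0.05 in edgeR was found for 2 in Flpo against Cre, 4 in Cre against GFP and 3 in Flpo against GFP. Of all 13905 genes, 3748, 3373 and 1353 had such a p, in the same order. Tsc22d3, which encodes GILZ, averaged 131 ± 28.5 CPM in Flpo and 48.5 ± 9.80 in Cre (log2 fold change 1.43, SE 0.32, adjusted p = 0.00805 in edgeR), and the clock gene Per1 averaged 41.5 ± 8.75 and 17.7 ± 7.19 CPM (1.23, SE 0.37, 0.0362). Tsc22d3 was called in all 16 fits with a library left out and Per1 in 9 (up to 0.0899, without Cre replicate 3). Neither was called in Cre against GFP. In GFP, Tsc22d3 stood at 37.9, 47.7, 118, 107 and 175 CPM and Per1 at 10.8, 8.53, 23.4, 27.8 and 41.0 CPM. Fkbp5, Zfp36 and Mt2 were not called in Flpo against Cre or in Cre against GFP. The list median was 0.39 in Flpo against Cre and 0.15 in Cre against GFP. The part of glucocorticoids in the Dusp1 difference was not tested.

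Clock genes were examined because Per1 and other members are known to vary with the hour of harvest. In Flpo against Cre 11 of 20 rose and 4 fell, beside 7.45% and 6.26% of all genes. In Cre against GFP 1 rose and 5 fell, beside 3.97% and 5.58% of all genes. In Flpo against GFP edgeR called 0, with 13 at an unadjusted p under 0.05, beside 1353 of all 13905 genes. In Cre against GFP 13 had such a p as well, beside 3373 of all genes. The summed level of the clock genes was 807 to 1017 CPM in Flpo, 492 to 798 in Cre and 643 to 853 in GFP. Per3, a repressor of the clock, averaged 20.1 ± 4.57 CPM in Flpo and 3.44 ± 2.66 CPM in Cre. Arntl, a core activator, averaged 1.79 ± 0.511 CPM in Flpo and 8.42 ± 4.30 in Cre, and its output gene Dbp averaged 112 ± 23.7 and 40.4 ± 27.0 CPM. The hour of harvest is not given in the labels used here, and the part of the clock in the Dusp1 difference was not tested. Stellate cell markers also moved: in Cre against GFP 4 of 9 fell and none rose, and in Flpo against Cre 5 rose, with summed levels of 191 to 304 CPM in Flpo, 108 to 195 in Cre and 171 to 279 in GFP. The 4 stellate genes with the smallest adjusted p were Col1a2, Lrat, Col3a1 and Col1a1. Kupffer cell markers had 0 of 8 called by edgeR in each comparison. Their unadjusted p was under 0.05 for 3 in Flpo against Cre, 1 in Flpo against GFP and 0 in Cre against GFP. Of all 13905 genes, 3748, 1353 and 3373 had such a p, in the same order. Kupffer cell markers summed to 88.8 to 245 CPM in Flpo, 96.2 to 158 in Cre and 90.2 to 165 in GFP. Markers of lymphocytes and neutrophils, with 1 of 9 called, Cd4, higher in Cre than in both other groups, summed to 3.23 to 6.20 CPM in Flpo, 5.56 to 9.96 in Cre and 3.64 to 5.90 in GFP. Endothelial markers had 1 of 6 called, Kdr, at 13.1 ± 2.30 CPM in Flpo, 20.1 ± 2.63 in Cre and 13.96 ± 2.37 in GFP. Of 5 cholangiocyte markers, Sox9 was higher in Cre than in both other groups and Spp1 was higher in Flpo than in Cre. Of 7 hepatocyte markers, Apoa1 was higher in Cre than in both other groups and Ttr was lower in Cre than in GFP, as was Hbb-bs of 4 tested blood, fat, muscle and pancreas markers. With a library left out, the calls in Cre against GFP held in 5 of 16 fits for Hbb-bs, 10 each for Apoa1 and Ttr, and 11 each for Cd4 and Kdr, and that of Spp1 in Flpo against Cre in 3. The calls of Col1a1, Col1a2, Col3a1, Lrat and Sox9 held in all 16. That of Reln, the other stellate gene called in Flpo against Cre, held in 10 of 16. The part of these cells in the phosphatase differences was not tested.

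Whether the counting used strand is not given, and 4 members share exonic positions with a gene on the opposite strand. Dusp1 shares the upstream end of its annotated span with Ergic1, which stood at 44.8 to 61.0 CPM in Flpo, 41.2 to 63.3 in Cre and 44.8 to 63.1 in GFP and was not called (log2 fold change 0.02 in Cre against GFP). The partners of Dusp3 and Dusp8 were at or below 0.751 CPM in every library. The annotated partner of Dusp5, AC137853.2, has no row in the tables used here.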

How the data were processed

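Liver RNA of 16 libraries was compared between groups read from the library titles. The authors deposited estimated counts per gene, of which 31.7% were not whole, and a table of TPM, abundance scaled for length and library total. Per the submitters' processing notes, cutadapt, STAR and mm10 were used. The counting program is not given in the sources used here, nor is its handling of strand. Estimated counts were rounded and tested in edgeR 4.0.16 (R 4.3.3) after filterByExpr with a minimum count of 10, with TMM scaling and 1 quasi-likelihood fit of all libraries. p-values were adjusted over the 13905 genes tested. Each standard error is the fold change over the root of its F statistic, and 95% intervals follow from it. The fit was also run on simulated counts drawn independently for each library, which cannot speak to a batch or shared animals in the real data. Correlations used log2 CPM with a prior count of 2. Gene positions are from GENCODE M21, promoters from RefSeq.

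The members and gene lists were chosen with earlier results of these data known. Named are the 10 members, Mapk8 and Mapk9, up to 4 called genes per list with the smallest adjusted p, and, for called members, Dusp1 and Dusp6, the 3 most alike genes and the most opposite 1. A few genes beyond this rule (Jun, Fkbp5, Zfp36, Mt2, Dbp, Reln, partners by overlap) were named after their values were seen. A gene that the rule names is not reported here. Alternatives were DESeq2-type size factors, library totals, other filters, DESeq2 1.42.0, limma-voom 3.58.1, only the groups compared, a replicate block, limma on log2(TPM + 1) and log2(TPM + 0.1), and each library left out, which for genes other than the members was added after seeing the data.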

Additional observations from a re-analysis of the deposited data

Results flagged for a closer look

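In 3 of 30 sets of libraries (10 genes in 3 groups), 1 library lay far from the others of its group by Dixon's test, where chance gives about 1 in 20. Dusp3 stood at 60.7 CPM in Cre replicate 5, with the other Cre libraries at 31.0 to 38.8. Dusp8 stood at 3.41 CPM in the same library, with the others at 0.373 to 0.898, and at 1.71 CPM in GFP replicate 2, with the other GFP libraries at 0.313 to 0.619.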

How the results depend on the processing

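Of the members, Dusp1 kept its direction and its call in Cre against GFP and in Flpo against Cre under all 26 alternatives. In Cre against GFP the number of members called was 1 in place of 2 with library totals alone, no low-count filter, limma-voom, only the 2 groups compared, the replicate block, log2(TPM + 1) and log2(TPM + 0.1), and 1 to 2 with each library left out. In Flpo against Cre it was 1 to 3 in place of 3 with each library left out, and 2 with library totals alone, no low-count filter, log2(TPM + 1) and log2(TPM + 0.1), which lost Dusp5 (adjusted p = 0.0564, 0.0730, 0.0545 and 0.0703). Over all genes, Cre against GFP called 834 with only the 2 groups compared, 2104 on log2(TPM + 1) and 2172 on log2(TPM + 0.1), and Flpo against GFP called 70 in DESeq2, 2 in limma-voom, 1 with only the 2 groups compared, 0 with the replicate block and 0 to 15 with each library left out. With library totals the median over all genes stood at a log2 fold change of -0.14 in Cre against GFP and 0.13 in Flpo against Cre, and log2(TPM + 0.1) to -0.18 and 0.20.

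Signs turned only for differences that were not called. With library totals alone the log2 fold change was -0.0100 for Dusp4 in Cre against GFP, -0.00201 for Dusp5 in Flpo against GFP, and 0.0474 for Dusp10 and 0.13 for Dusp22 in Flpo against Cre. On log2(TPM + 1) it was -0.0194 for Dusp4 in Cre against GFP, and 0.0671 for Dusp10 and 0.19 for Dusp22 in Flpo against Cre, and on log2(TPM + 0.1) -0.0599, 0.12 and 0.20 in the same order. Dusp22 stood at 0.00280 in Flpo against Cre with no low-count filter. With each library left out, Flpo against Cre ranged from -0.0728 to 0.20 for Dusp6, -0.61 to 0.41 for Dusp8, -0.19 to 0.0604 for Dusp10 and -0.0773 to 0.0427 for Dusp22. Cre against GFP ranged from -0.14 to 0.0458 for Dusp7 and -0.20 to 0.13 for Dusp10, and Flpo against GFP from -0.13 to 0.0692 for Dusp1, -0.13 to 0.14 for Dusp5 and -0.24 to 0.0302 for Dusp10. The cause was not tested.

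Replicate numbers are shared by the groups, and the deviations of libraries with the same number correlated at -0.16 to 0.12. Libraries with different numbers were not compared in this way, so whether a number marks a shared factor was not tested. With the replicate block, fitted without Flpo replicate 6, Dusp5 stood at 0.97 in Cre against GFP (adjusted p = 0.0931) and Dusp16 at 0.46 in Flpo against Cre (0.0578), neither called, and -0.13 for Dusp5 in Flpo against GFP, -0.12 for Dusp6 and 0.0305 for Dusp22 in Flpo against Cre had turned in sign. Over all genes the block left 1019 calls in Cre against GFP and 1352 in Flpo against Cre.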
